A study of Mus musculus with 20 samples.

Results

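Chitooligosaccharides are chains of N-acetylglucosamine (GlcNAc) joined by β1-4 bonds. The printed glycan array held 419 compounds, and 7 of them met a rule on structure that uses no signal: a chain that opens with GlcNAcβ1-4GlcNAc, or repeats this unit, and holds no galactose, mannose, fucose, sulfate or sialic acid. They were 4 forms of the disaccharide chitobiose, and chains of 3, 5 and 6 GlcNAc. Chitobiose was printed as GlcNAcβ1-4GlcNAcβ-Asn, with its reducing end on the amino acid asparagine (chitobiose-Asn), as GlcNAcβ1-4GlcNAcβ-sp3 (chitobiose β-sp3) and GlcNAcβ1-4GlcNAcβ-sp4 (chitobiose β-sp4), and as GlcNAcβ1-4GlcNAcα-sp4 (chitobiose α-sp4), whose inner GlcNAc is in the α form. The longer chains were chitotriose β-sp4, chitopentaose β-sp4 and chitohexaose on sp4, whose anomer was not given. A spacer is the arm that ties a glycan to the glass: sp2 is an aminoethyl arm, sp3 an aminopropyl arm bound through oxygen, sp4 a glycyl arm bound through nitrogen, and sp8 an arm built from ethylene glycol units.

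Long chains of this kind form chitin, which fungi, insects and other arthropods contain and which mammals do not build as a structural polymer. The same disaccharide sits on asparagine at the base of the N-glycans of mammalian glycoproteins, where it is covered by mannose. Bacterial peptidoglycan has a related backbone, in which GlcNAc alternates with a GlcNAc that carries a lactic acid ether (muramic acid). Natural antibodies are those present in serum with no deliberate immunization.

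Sera came from untreated BALB/c mice, an inbred strain, aged 10 weeks and kept specific pathogen free. There were 12 females and 7 males after a pair of identical arrays, labelled as 2 females, was counted as 1 sample. Animals are called here by sex and replicate number (female 6, male 2). Each serum was diluted 1:15 and met all compounds on its own array. A biotinylated anti-mouse IgG+IgM and streptavidin-Cy5 then stained what had bound, so that the antibody classes cannot be told apart. The signal of a mouse is the median of 6 spots in relative fluorescence units (RFU), and 4000 RFU is the threshold for binding that the study used. There was 1 serum dilution, and the amount of glycan in a spot was not measured here, so a level is that of a printed compound at this dilution.

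The arrays were not alike. They fell into 2 sets by the ratio of a peptide of undisclosed sequence to the hexaglycine amide printed beside the glycans, which was 0.631 to 1.86 on 9 arrays (7 females, 2 males; the higher-ratio arrays) and 0.0109 to 0.0561 on 10 arrays (5 females, 5 males; the lower-ratio arrays). An array's median signal lay between 126.5 and 411.5 RFU among the higher-ratio arrays and between 603 and 1504.5 RFU among the lower-ratio arrays. Spots of printing buffer read 93.5 to 2044.5 RFU with a median of 577.5, and the control sugar, trehalose on ethanolamine, reached 914 RFU at most. Male 2, of the lower-ratio set, stood apart on several of the chitooligosaccharides, and values without this mouse are given where they differ.

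Antibodies bound 3 of the chitobioses in many mice and the other 4 compounds in few. Chitobiose-Asn read 250 RFU in the dimmest mouse, 10697 ± 8343 RFU in the middle (median ± median absolute deviation (MAD), n = 19) and 63594 RFU in the brightest, and 14 mice reached the threshold (73.7%, exact Clopper-Pearson interval 48.8 to 90.9%). Chitobiose β-sp4 read 138 to 60854.5 RFU with a median of 6753 ± 4951 RFU, and 11 mice reached the threshold (57.9%, interval 33.5 to 79.7%). Chitobiose α-sp4 read 102.5 to 60327 RFU with a median of 3680.5 ± 3465 RFU, and 8 mice reached the threshold (42.1%, interval 20.3 to 66.5%). In each of these compounds the dimmest mouse was female 7, and the brightest was male 2.

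The remaining 4 compounds stayed near the buffer in most mice. Chitobiose β-sp3 read 56 to 6784 RFU with a median of 475.5 ± 400.5 RFU, and male 5 alone reached the threshold. Chitotriose read 75.5 to 6028.5 RFU with a median of 400 ± 185.5 RFU and reached it in males 2 and 5. The array of male 5 had the highest buffer of all, at 2044.5 RFU. Its signals for chitobiose β-sp3 and chitotriose, 6784 and 5011 RFU, were 3.32 and 2.45 times that buffer. After quantile normalization no mouse reached the threshold for either compound. Chitopentaose read 106.5 to 20688.5 RFU with a median of 639.5 ± 328 RFU. Chitohexaose read 79 to 31532 RFU with a median of 720 ± 370 RFU. Both of these long chains reached the threshold in male 2 alone, and their second highest mice were at 2266.5 and 2627 RFU. The signal was at or below the buffer of its own array in 9 mice for chitobiose β-sp3, 9 for chitotriose, 8 for chitopentaose and 5 for chitohexaose, but in 2 for chitobiose-Asn and 3 each for chitobiose β-sp4 and α-sp4.

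All 7 compounds were thus bound in at least 1 mouse, where 54.4% of the 406 glycans on the array were. Without male 2 the count was 5 of 7, with chitopentaose and chitohexaose under the threshold, against 52.2% of the 406 glycans.

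**Figure D1:**
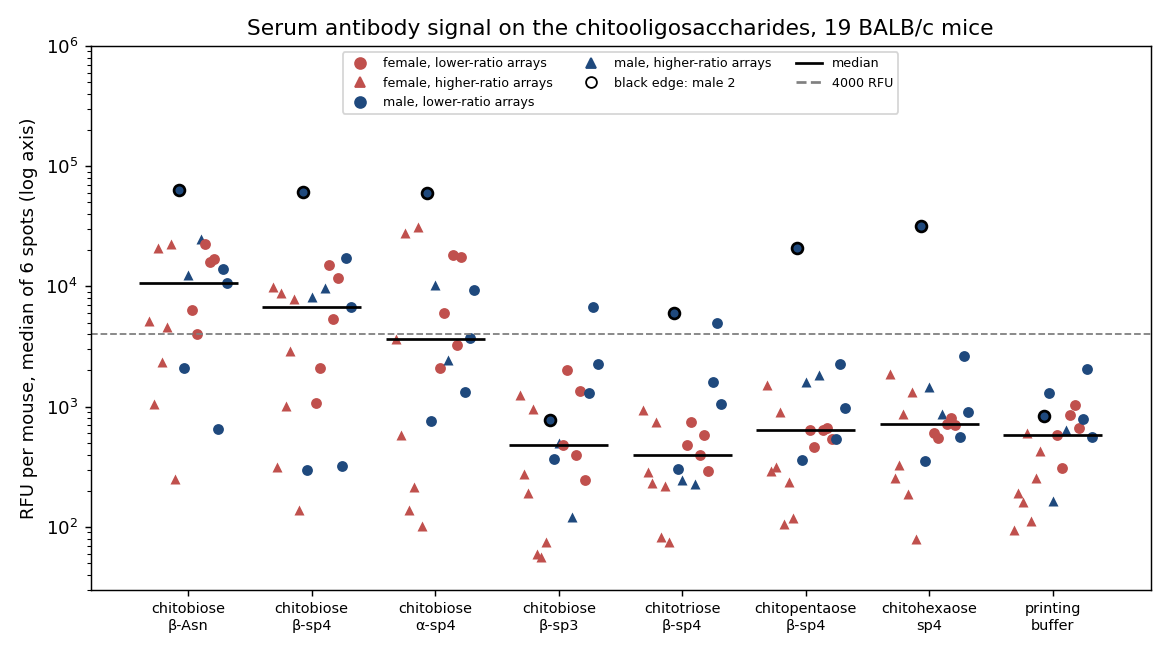
RFU of each of the 19 mice (points; log axis) on the 7 chitooligosaccharides and on printing buffer, with the median as a bar and the threshold of 4000 RFU as a dashed line; colour marks sex, shape the set of arrays, and a black edge male 2. The medians of chitobiose-Asn and chitobiose β-sp4, at 10697 and 6753 RFU, lie above the threshold, that of chitobiose α-sp4 at 3680.5 RFU just under it, and the other 4 between 400 and 720 RFU, near the buffer at 577.5 RFU.

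Rank within the array of a mouse, which a constant factor between arrays does not move, put the compounds in the same 2 groups. Among the 406 glycans, chitobiose-Asn had a median percentile of 92.6, chitobiose β-sp4 of 89.1 and chitobiose α-sp4 of 83.0. The percentiles of chitohexaose, chitopentaose, chitobiose β-sp3 and chitotriose were 48.9, 42.6, 42.2 and 35.3. Ordered by their medians over mice, chitobiose-Asn took place 13, chitobiose β-sp4 place 19, chitobiose α-sp4 place 32 and chitobiose β-sp3 place 242.

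Mice at the threshold for chitobiose β-sp4 or α-sp4 were all among those at the threshold for chitobiose-Asn, 11 of 11 for the first and 8 of 8 for the second, and 7 mice reached it for all 3. Chitobiose-Asn was the brightest of the 7 compounds in 12 mice, chitobiose α-sp4 in 4, chitobiose β-sp4 in 2 and chitotriose in 1, male 4, which had no compound of the 7 at the threshold. In all, 5 mice (females 2, 4 and 7, and males 3 and 4) had none at the threshold, and they came from both sets of arrays.

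Changing only the arm under chitobiose β went with a wide difference in signal. Pairs of compounds were compared within mice by an exact sign-flip test (two-sided, all 524288 sign assignments) on log2 RFU, with p adjusted over 30 pairs, of which 21 were pairs of the chitooligosaccharides and 9 pairs with a related glycan. On sp3, the signal of chitobiose was lower than on sp4 in 17 of 19 mice, with a mean difference of -2.72 on the log2 scale (sp3 minus sp4, 95% interval -4.03 to -1.42, adjusted p = 0.00127), or 6.60-fold. In female 6 it read 56 RFU on sp3 and 7905.5 RFU on sp4, and in male 2 it read 772 and 60854.5 RFU. The exceptions were male 4, with 1298.5 RFU on sp3 and 318 RFU on sp4, and male 3, with 366.5 and 296.5 RFU. The difference was -3.42 on the higher-ratio arrays (0 of 9 mice higher on sp3, exact p = 0.00391) and -2.09 on the lower-ratio arrays (2 of 10, exact p = 0.0430), where it missed the threshold after adjustment (adjusted p = 0.0806). With signals raised to the buffer of their own array, so that only signal above buffer counts, the mean difference was -2.42, or 5.35-fold (adjusted p = 0.000343).

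Asparagine in place of sp4 went with a smaller step upward. Chitobiose-Asn exceeded chitobiose β-sp4 in 17 of 19 mice, by 0.98 on the log2 scale (interval 0.55 to 1.41, adjusted p = 0.000772), 1.97-fold. This difference was 0.91 on the higher-ratio arrays and 1.04 on the lower-ratio arrays. Without male 2, which was among the 17 and held saturated pixels on both compounds, it was 1.03 (adjusted p = 0.000883). Female 1 and male 5 had the reverse order, with 5171.5 RFU on asparagine and 9833.5 RFU on sp4 in the one and 13915 and 17392 RFU in the other. Against chitobiose β-sp3, chitobiose-Asn was 13.0-fold higher (log2 difference 3.70, interval 2.45 to 4.96, adjusted p = 8.58e-05), in 18 of 19 mice.

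The spots of these 3 compounds were printed side by side, in columns 5 (β-sp4), 6 (β-sp3) and 7 (Asn) of the same row, in each replicate block. In male 2 the middle compound read 772 RFU between neighbours at 60854.5 and 63594 RFU.

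The α and β forms of chitobiose on sp4 were not separated. The mean of β minus α was 0.07 on the log2 scale, with an interval from -0.74 to 0.90 and adjusted p = 0.881, and β was higher in 8 mice and α in 11. Single mice were far from equality in both directions: female 5 read 2926.5 RFU on β and 215.5 RFU on α, and female 6 read 7905.5 RFU on β and 31170 RFU on α. The mean was 0.63 on the higher-ratio arrays and -0.42 on the lower-ratio arrays, with exact p = 0.367 and 0.301. Chitobiose-Asn exceeded the α form by 1.05 (interval 0.30 to 1.82, adjusted p = 0.0109), in 14 of 19 mice. It was 1.54 on the higher-ratio arrays and 0.62 on the lower-ratio arrays, and passed the threshold in neither set alone (adjusted p = 0.0689 and 0.173).

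**Figure D2:**
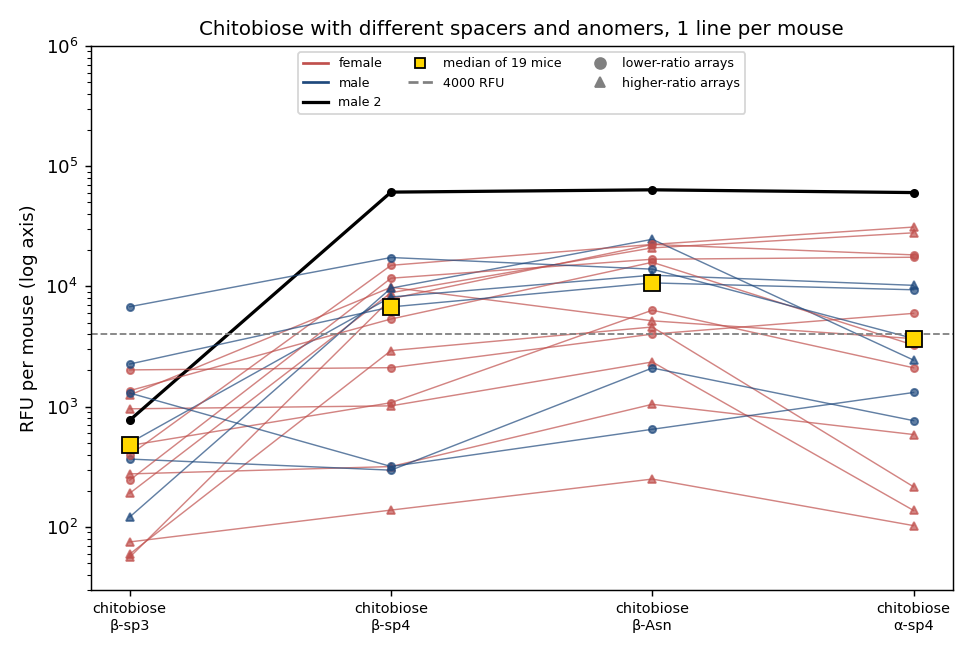
RFU (log axis) of each of the 19 mice, joined by a line, on chitobiose β-sp3, β-sp4, β-Asn and α-sp4; squares are medians, the thick black line is male 2, colour marks sex, marker shape the set of arrays, and the dashed line is 4000 RFU. Lines rise from β-sp3 to β-sp4 in 17 mice and from β-sp4 to asparagine in 17; α-sp4 is above β-sp4 in 11 mice and below it in 8.

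On the sp4 arm, where the chain of GlcNAc was the only named change, the signal was highest at the disaccharide. GlcNAcβ-sp4, the single sugar, read 38.5 to 2677.5 RFU with a median of 1011 ± 725.5 RFU and no mouse at the threshold. Chitobiose β-sp4 was brighter than the single sugar in 16 of 19 mice (single sugar minus chitobiose, -2.48, interval -3.69 to -1.26, adjusted p = 0.00156), 5.57-fold. The difference was -3.66 on the higher-ratio arrays (exact p = 0.00391) and -1.42 on the lower-ratio arrays (exact p = 0.0918, adjusted p = 0.153), where the single sugar itself read 1011 to 2677.5 RFU.

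A chain of 3 was dimmer than a chain of 2. Chitobiose β-sp4 exceeded chitotriose β-sp4 in 17 of 19 mice, by 2.74 on the log2 scale (interval 1.61 to 3.87, adjusted p = 0.000772), 6.70-fold. It exceeded chitopentaose by 2.31 (interval 1.40 to 3.22, adjusted p = 0.000496) and chitohexaose by 2.11 (interval 1.31 to 2.92, adjusted p = 0.000481), each in 17 mice. In female 11 the values for chains of 1, 2, 3, 5 and 6 were 1276, 11704, 290.5, 534.5 and 702 RFU. Of these 5 compounds, chitobiose was the brightest in 16 mice, the single sugar in 2, and chitotriose in male 4.

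Beyond 3 sugars the differences were small. Chitotriose minus chitopentaose was -0.43 (interval -0.98 to 0.10, adjusted p = 0.151), and chitopentaose minus chitohexaose was -0.20 (interval -0.52 to 0.10, adjusted p = 0.292). Chitotriose minus chitohexaose was -0.63 (interval -1.18 to -0.08, adjusted p = 0.0388), with chitohexaose higher in 13 mice and lower in 5. That call did not hold with signals raised to the buffer (-0.40, adjusted p = 0.157), with the mean of 6 spots (-0.51, adjusted p = 0.127), with 500 RFU added before log2 (-0.35, adjusted p = 0.0897) or on the lower-ratio arrays alone (-0.24, adjusted p = 0.654). Nor did it hold when any of 9 mice was left out (females 1, 3, 5, 6, 9 and 11, and males 1, 2 and 7; -0.53 with adjusted p = 0.0764 without male 2). Chitotriose was below chitopentaose in all 9 mice of the higher-ratio arrays (-0.84, exact p = 0.00391) and in 6 of the 10 mice of the lower-ratio arrays (-0.07, exact p = 0.832).

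**Figure D3:**
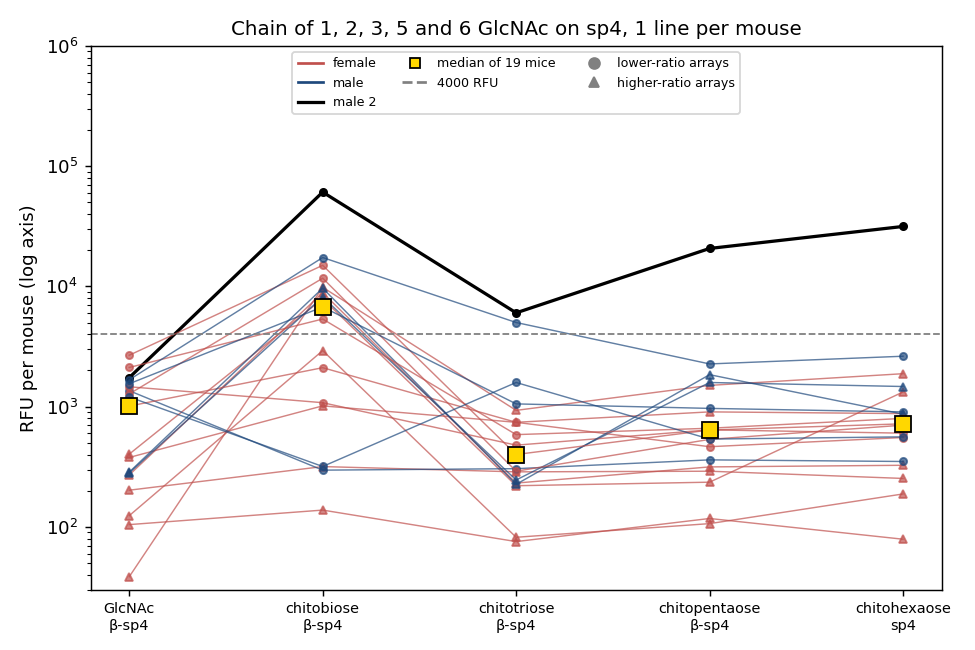
RFU (log axis) of each of the 19 mice, joined by a line, on sp4 compounds with chains of 1, 2, 3, 5 and 6 GlcNAc; squares are medians, the thick black line is male 2, colour marks sex, marker shape the set of arrays, and the dashed line is 4000 RFU. The medians are 1011, 6753, 400, 639.5 and 720 RFU, and male 2 alone is above the threshold at chains of 5 and 6.

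In all, 15 of the 21 pairs of chitooligosaccharides differed past adjusted p. They included all 12 pairs that set chitobiose-Asn, β-sp4 or α-sp4 beside one of the other 4 compounds, with means from 4.11-fold to 13.2-fold. Of the 3 pairs among the brighter compounds 2 differed, and of the 6 pairs among the dimmer ones only chitotriose and chitohexaose did. Leaving out any 1 mouse changed none of those 12 calls. Within either set of arrays alone, 12 of the 21 pairs passed. On the higher-ratio arrays, all 4 pairs of chitobiose α-sp4 with a dimmer compound kept their direction and missed adjusted p (0.0716 to 0.156). None of the 30 pair differences passed a test between females and males (exact permutation test, lowest p = 0.124, lowest adjusted p = 0.926).

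Male 2 had the highest value of the 19 mice for 6 of the 7 compounds, chitobiose β-sp3 being the exception. It read 63594 RFU for chitobiose-Asn, 60854.5 RFU for β-sp4 and 60327 RFU for α-sp4, and in each of them all 6 of its spots held saturated pixels, so that these values are lower bounds. Along the chain on sp4 it read 1743 RFU for the single sugar, 6028.5 RFU for chitotriose, 20688.5 RFU for chitopentaose and 31532 RFU for chitohexaose.

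The single sugar showed the opposite order of spacers to the disaccharide in this mouse: 55912 RFU for GlcNAcβ-sp3 against 1743 RFU for GlcNAcβ-sp4, and 772 RFU for chitobiose β-sp3 against 60854.5 RFU for chitobiose β-sp4. Of the spots of GlcNAcβ-sp3 in this mouse, 4 of 6 held saturated pixels, so that its value is a lower bound too. In male 2, 9 glycans were at the threshold that were so in no other mouse, and chitopentaose and chitohexaose were among them. The like number was 12 in male 5, whose array had the highest buffer and median signal, and at most 8 in any other mouse. A GlcNAcβ1-4-muramyl dipeptide that carries a lysine, a fragment of bacterial peptidoglycan, was another, with at least 61647.5 RFU in male 2, where all 6 spots held saturated pixels, and 2545.5 RFU in the next mouse.

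Glycans that differ from a chitobiose by a single named change on the same arm were set beside it. The single sugar GlcNAcβ-sp3 had a median of 1494.5 RFU and exceeded chitobiose β-sp3 by 1.40 (interval 0.26 to 2.56, adjusted p = 0.0292), in 13 of 19 mice. The call did not hold when any of 5 mice was left out (females 3, 5, 6 and 11, and male 2). Without male 2 the mean was 1.14 with adjusted p = 0.0582, and with signals raised to the buffer 0.90 with adjusted p = 0.128. The step from single sugar to disaccharide thus had means of opposite sign on sp3 and sp4, and the difference between these steps was not tested.

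A lactic acid ether on the inner GlcNAc, which makes it N-acetylmuramic acid as in peptidoglycan, went with lower signal. On β-sp4 the ether had a median of 424 RFU with 1 mouse at the threshold, and its difference from chitobiose β-sp4 was -2.45 (interval -3.89 to -0.97, adjusted p = 0.00595), lower in 16 of 19 mice. It was -3.09 on the higher-ratio arrays and -1.87 on the lower-ratio arrays, where the call was lost (adjusted p = 0.202). On α-sp4 the ether had a median of 381.5 RFU, and its difference from chitobiose α-sp4 was -2.64 (interval -4.10 to -1.17, adjusted p = 0.00320), lower in 15 of 19 mice. It was -3.02 on the higher-ratio arrays, where the call was lost (adjusted p = 0.0802), and -2.29 on the lower-ratio arrays.

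Other outer sugars were compared on the arm that each was printed with. Mannose in place of the outer GlcNAc on sp4, Manβ1-4GlcNAcβ, had a median of 1018 RFU and lay below chitobiose β-sp4 (-1.76, interval -3.11 to -0.38, adjusted p = 0.0259). This difference was -2.68 on the higher-ratio arrays and -0.93 on the lower-ratio arrays, where the call was lost (adjusted p = 0.453), as it was when spots marked as not found were left out (-1.53, adjusted p = 0.0520). On sp3, N-acetylgalactosamine in that place lay below chitobiose β-sp3 (-1.13, interval -1.81 to -0.44, adjusted p = 0.00134), with 17 of 19 mice at or below the buffer, and missed adjusted p on the higher-ratio arrays alone (-0.87, adjusted p = 0.128). Galactose there, which makes N-acetyllactosamine, differed by -0.47 (interval -1.35 to 0.42, adjusted p = 0.317).

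A pair of further changes on sp3 were not separated from chitobiose β-sp3, which was itself near the buffer. An α1-4 bond between the GlcNAc units gave a difference of 0.77 (interval -0.23 to 1.76, adjusted p = 0.159), with 17120 RFU in male 6. The core fucose, which many N-glycans carry on the innermost GlcNAc, gave 0.38 (interval -0.53 to 1.28, adjusted p = 0.415). Chitobiose with a 6-O-sulfate, printed on sp2, has no partner on that arm, and read 131 to 7371.5 RFU with a median of 453.5 RFU and 4 mice at the threshold.

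**Figure D4:**
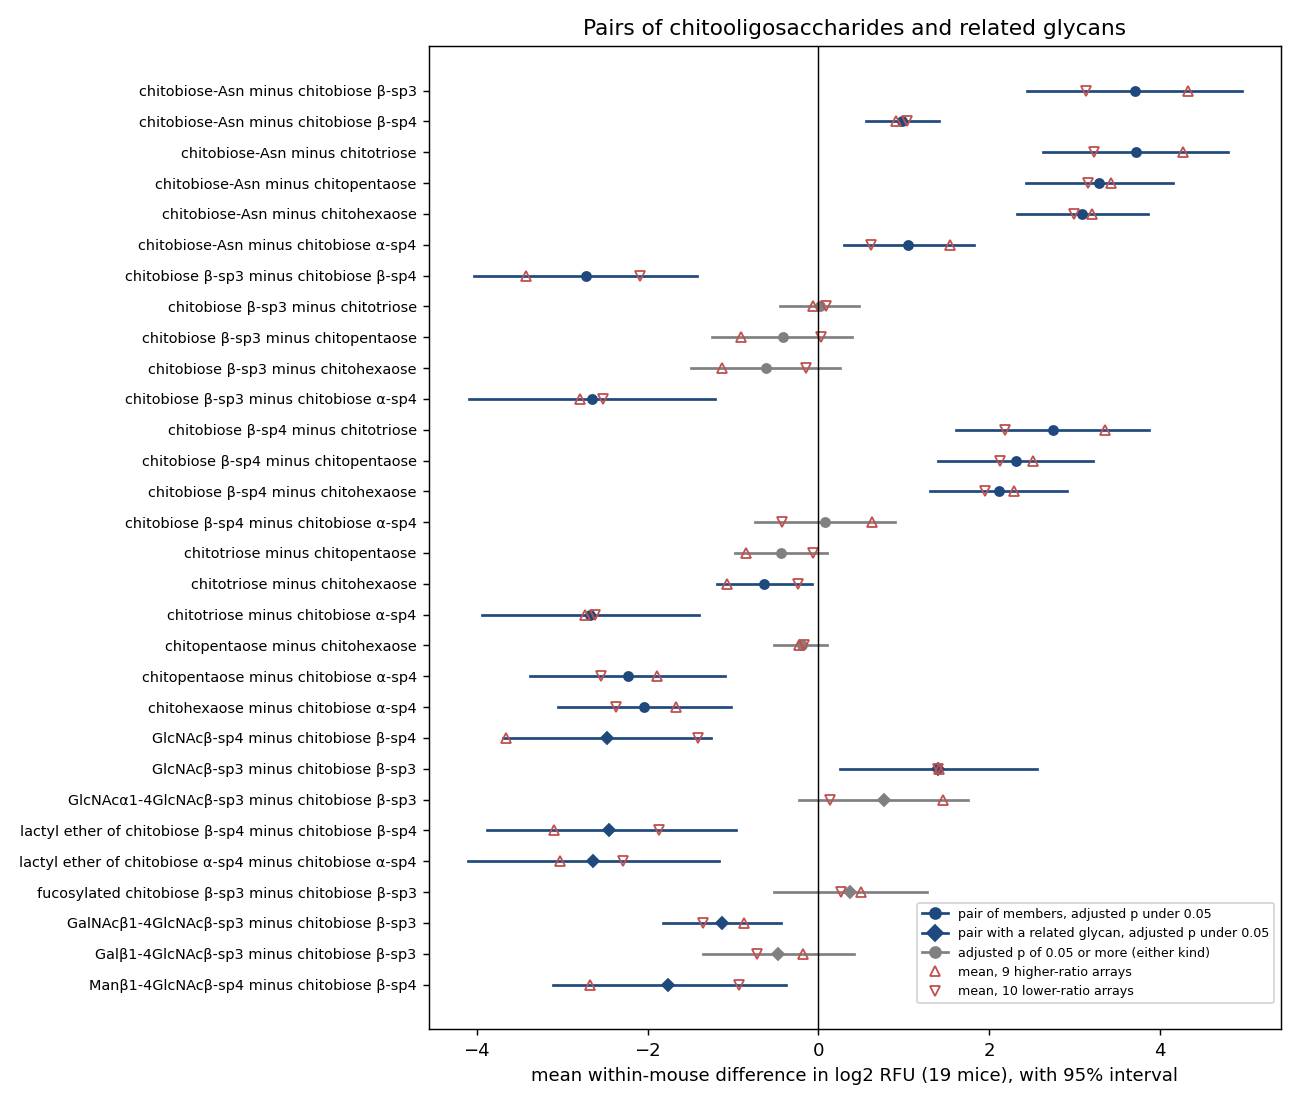
Mean within-mouse difference in log2 RFU over 19 mice for the 30 pairs of compounds, first minus second, with 95% intervals (bars); filled points in blue passed adjusted p under 0.05, and open triangles are the means in the 9 higher-ratio and the 10 lower-ratio arrays. The widest differences are those of chitobiose-Asn from chitotriose and chitobiose β-sp3, at 3.72 and 3.70, and the interval of chitobiose β-sp4 minus α-sp4 spans 0.

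The level of each chitooligosaccharide over mice was compared with that of each other within each set of arrays, which gave 42 correlations of log2 RFU. Adjusted p-values are over all 42 (permutation tests, exact for 9 mice and with 100000 draws for 10). All points of a mouse share its array and its background. Chitobiose-Asn and chitobiose β-sp4 had r = 0.94 in both sets (adjusted p = 0.00451 and 0.00336; Spearman rho = 0.78 and 0.88, adjusted p = 0.0744 and 0.0208), and r = 0.79 and 0.91 without the 2 mice farthest from the median. Chitobiose-Asn and the α form had r = 0.81 and 0.83 (adjusted p = 0.0320 and 0.0144; rho = 0.78 and 0.84, adjusted p = 0.0744 and 0.0257), and 0.82 and 0.75 without those 2 mice. Without male 2 the second of these was 0.75 (adjusted p = 0.0680). Chitobiose β-sp4 and the α form had r = 0.78 and 0.89 (adjusted p = 0.0507 and 0.00546; rho = 0.65 and 0.85, adjusted p = 0.149 and 0.0244), and 0.83 and 0.78 without those 2 mice.

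Chitobiose β-sp3 did not go with the other chitobioses. Its r with chitobiose-Asn was -0.05 in both sets, with β-sp4 0.13 and 0.15, and with α-sp4 -0.01 and -0.12, with adjusted p from 0.801 to 0.973. With chitotriose it had r = 0.90 on the higher-ratio arrays (adjusted p = 0.00451; rho = 0.97, adjusted p = 0.00278) and 0.67 on the lower-ratio arrays (adjusted p = 0.0866; rho = 0.75, adjusted p = 0.0744). Without male 2 the second was 0.91 (adjusted p = 0.00553). Without the 2 mice farthest from the median the pair had 0.63 and 0.36.

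Chitopentaose and chitohexaose had r = 0.80 on the higher-ratio arrays (adjusted p = 0.0507; rho = 0.67, adjusted p = 0.149) and 0.996 on the lower-ratio arrays (adjusted p = 0.00126; rho = 0.94, adjusted p = 0.00278). The second was 0.98 without male 2 and 0.90 without the 2 farthest mice. Chitotriose with these long chains on the lower-ratio arrays, at r = 0.82 and 0.80, rested on the 2 farthest mice, with 0.40 and 0.27 without them. For the same pairs on the higher-ratio arrays r was 0.70 each (adjusted p = 0.0866 for both), and 0.66 each without the 2 farthest mice. On the lower-ratio arrays chitobiose β-sp4 also went with chitopentaose (r = 0.70, adjusted p = 0.0368) and chitohexaose (r = 0.73, adjusted p = 0.0144). Their rho was 0.70 and 0.87 (adjusted p = 0.106 and 0.0208). Both Pearson calls were lost without male 2 (r = 0.62 and 0.72, adjusted p = 0.126 and 0.0613). On the higher-ratio arrays r was 0.53 and 0.72 (adjusted p = 0.236 and 0.0866). Of the 42 correlations, 11 passed adjusted p by Pearson and 6 by Spearman. Leaving out male 2 kept 6 of the 11, lost 5 and added 1.

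**Figure D5:**
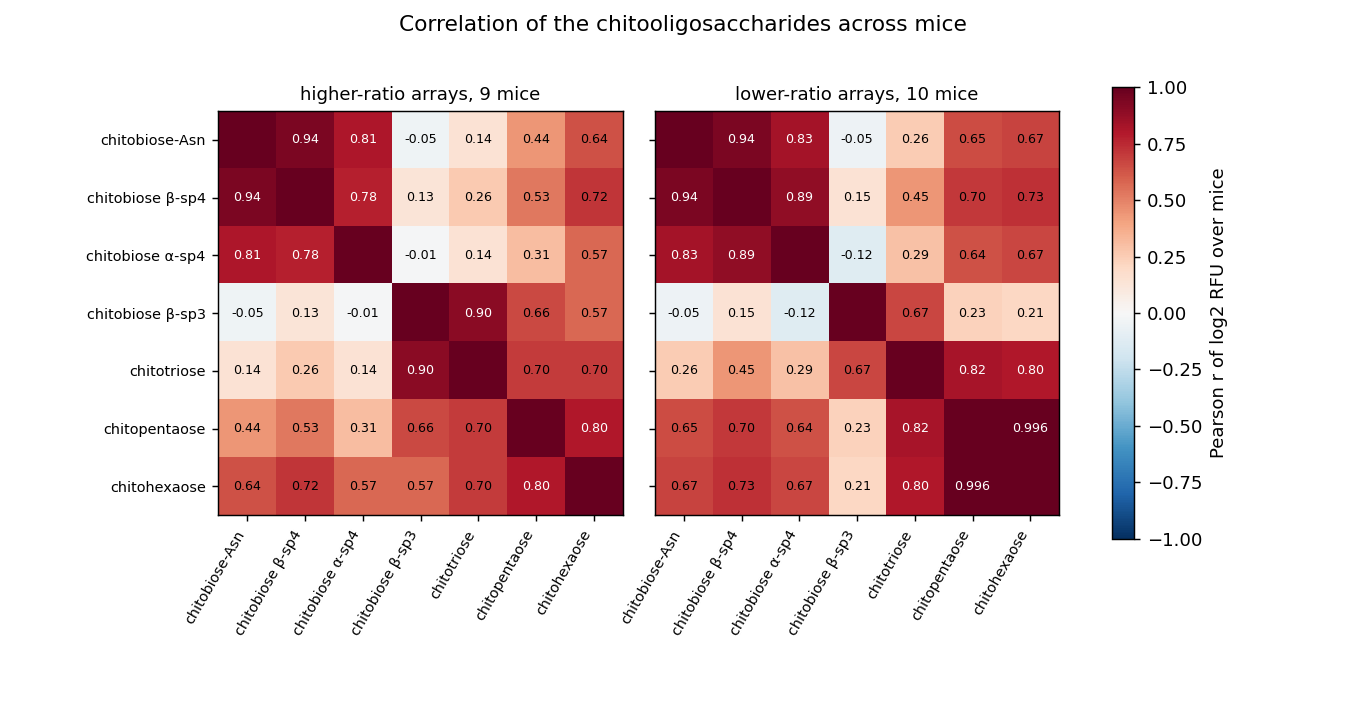
Pearson r of log2 RFU over mice for each pair of the 7 chitooligosaccharides, in the 9 mice of the higher-ratio arrays (left) and the 10 of the lower-ratio arrays (right), coloured from -1 (blue) to 1 (red). The block of chitobiose-Asn, β-sp4 and α-sp4 is between 0.78 and 0.94 in both sets, and chitobiose β-sp3 with this block is between -0.12 and 0.15.

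Among glycans outside the 7, the one most like each of the 3 bright chitobioses over mice was GlcNAcβ-sp8, the single sugar on the ethylene glycol arm. With each set of arrays centred on its own mean, its log2 RFU had r = 0.91 with chitobiose-Asn, 0.85 with β-sp4 and 0.78 with α-sp4 over 19 mice, given as a description with no test. It read 107.5 to 61310 RFU with a median of 2947 RFU, the highest being male 2 with saturated pixels in all 6 spots, and 9 mice were at the threshold. For chitobiose α-sp4 the next was GlcNAcβ1-6(GlcNAcβ1-4)GalNAcα-sp3, at 0.74, which also ends in GlcNAc. A sulfated and sialylated N-acetyllactosamine on sp2 was at 0.71 for chitobiose-Asn and 0.67 for α-sp4, and lactose on a dipeptide at 0.71 for chitobiose-Asn. For chitobiose β-sp4 a trisulfated N-acetyllactosamine and a sialylated pentasaccharide on sp4 came next, at 0.58 and 0.57.

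For chitobiose β-sp3 the most alike were GalNAcβ1-3GalNAcα-sp3 and GalNAcβ1-4(6-O-Bn)GlcNAcβ-sp3, at 0.71 and 0.69, and a polymer of the hyaluronic acid repeat, at 0.53. For chitotriose they were GlcNAcβ1-3Manβ-sp4, at 0.68, a modified sialic acid at 0.58 and a sulfated lactose at 0.55. Without male 2 these were 0.56, 0.46 and 0.60. GlcNAcβ1-3Manβ-sp4 also came up for chitopentaose and chitohexaose, at 0.68 and 0.70, or 0.51 and 0.54 without male 2. So did Galβ1-3(6-O-Su)GlcNAcβ-sp2, at 0.69 and 0.72, or 0.44 and 0.45 without male 2. Lewis X was at 0.71 for chitopentaose, and the lysine-bearing muramyl dipeptide at 0.67 for chitohexaose, or 0.35 without male 2.

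Sex was the label that differed between the mice. Across all 419 compounds, limma called 1.67% between females and males at adjusted p under 0.05, and 0 of the 7 chitooligosaccharides were among them. At an unadjusted p under 0.05 limma had 2 of the 7, chitotriose and chitopentaose, as did the exact permutation test, and 73 of the 419 compounds. The mean was lower in females for all 7, by 0.63 to 1.95 on the log2 scale, where the median difference over all compounds was -0.75 (female minus male). With quantile normalization that median was 0.04, and the means of chitobiose-Asn, β-sp4 and α-sp4 were then 0.15, 0.16 and 0.0018 and those of the other 4 below 0, and none of the 7 had an unadjusted p under 0.05.

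Chitopentaose had the widest difference. Females read 106.5 to 1503 RFU with a median of 499.5, and males 361 to 20688.5 RFU with a median of 1588.5, so that the groups overlapped. The difference in mean log2 RFU was -1.95 (standard error 0.70, adjusted p = 0.178 from limma; exact permutation p = 0.00740, interval -3.41 to -0.53). It was -2.41 on the higher-ratio arrays, which held only 2 males, -1.41 on the lower-ratio arrays, and -1.33 without male 2 (exact permutation p = 0.0305). For chitotriose the difference was -1.52 (adjusted p = 0.268 from limma; exact permutation p = 0.0434), and -1.08 without male 2 (exact permutation p = 0.125). It was 0.19 on the higher-ratio arrays and -1.86 on the lower-ratio arrays. The buffer spots moved the same way, with -1.08 (exact permutation p = 0.0626), as did the median of the array, with -0.96 (exact permutation p = 0.0596). After quantile normalization, under which every array has identical ranked values, the difference was -0.91 for chitopentaose and -0.79 for chitotriose (adjusted p = 0.830 and 0.853 from limma).

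For chitobiose-Asn, β-sp4 and α-sp4 the difference between the sexes was -0.63, -0.78 and -0.89, with intervals from -2.72 to 1.46, from -3.24 to 1.69 and from -3.65 to 1.86. Without male 2 the differences were -0.16, -0.17 and -0.28 (exact permutation p = 0.879, 0.883 and 0.834). With all mice, within the higher-ratio arrays they were -2.31, -2.23 and -1.96, and within the lower-ratio arrays 0.71, 0.33 and 0.53. The higher-ratio arrays held only 2 males, and differences between the sexes within a set of arrays were not tested. For chitohexaose the difference was -1.53 (adjusted p = 0.295 from limma, exact permutation p = 0.0507), and -0.80 without male 2 (exact permutation p = 0.185).

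With spots under 100 RFU set to 100, the 6 spots of a compound on the same array were closer together on the lower-ratio arrays for 6 of the 7 compounds. For chitohexaose the highest spot was 6.03-fold above the lowest in the median higher-ratio array and 2.10-fold in the median lower-ratio array, and for chitopentaose 7.70-fold and 4.00-fold. For chitobiose α-sp4 these were 2.42-fold and 2.05-fold, and for chitobiose β-sp3, the exception, 3.07-fold and 3.10-fold. Spots of chitobiose β-sp3 fell under 100 RFU on several higher-ratio arrays and on none of the lower-ratio arrays. Its higher-ratio value is thus narrowed by the floor: in female 6 its spots ran from 11 to 186 RFU, which counted as 1.86-fold. For chitobiose-Asn they were 4.01-fold and 2.14-fold, and for β-sp4 4.81-fold and 2.61-fold. Pooled over arrays, the standard deviation of log2 RFU between spots was widest for these 2 compounds, at 1.35 and 1.28. In female 6 single spots ran from 12 to 28246 RFU for chitobiose-Asn and from 9 to 8854 RFU for β-sp4.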

How the data were processed

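Per the file headers, the authors quantified the scans with ScanArray Express 4.00. The deposited intensity of a spot is its mean over pixels, and local background, the percent of saturated pixels and a flag for spots not found were deposited beside it. Of the deposited table for the whole series, only compound numbers and structures were used. Its intensity is described as a summary over all animals and labelled as median ± MAD.

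RFU of a mouse was the median of 6 spots, with background left in and no scaling between arrays, since a single threshold of 4000 RFU was applied. Values under 100 RFU (6 of the 133 for the chitooligosaccharides) were set to 100 before log2. The rule that picks the chitooligosaccharides reads structure only, but it and the lists of related glycans were set with earlier results of these data known. The text names every chitooligosaccharide, related glycans listed with them and, for each, the 3 other glycans most alike over mice. The sets of arrays were divided where the ratio of the 2 peptides, on the log2 scale, had its largest gap, and no label explains them. The number of arrays limits the precision. Human data were left out.

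Pairs were tested within mice by exact sign flips, with intervals of the shifts not rejected. Sexes were compared with limma 3.58.1 under R 4.3.3 (trend in the prior variance), and by exact permutation over 50388 assignments. Adjustment was by Benjamini and Hochberg. Scripts used Python 3.11.15 with scipy 1.17.1, numpy 2.4.6 and pandas 2.3.3, drew figures with matplotlib 3.10.9, and were tested on simulated data.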

Additional observations from a re-analysis of the deposited data

Results flagged for a closer look

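Among the 7 males, 6 of the 7 chitooligosaccharides had a mouse whose gap to its nearest neighbour took more of the group's range than Dixon's 95% critical value allows. The same held for 126 of the 406 glycans on the array (31%). Chance flags about 1 in 20 groups of normally distributed values. The rule was applied to RFU without log2, for which that rate need not hold, and the compounds share their mice. Male 2 was that mouse for 5 of them: it read 63594 RFU for chitobiose-Asn (next male 24657.5 RFU), 60854.5 RFU for chitobiose β-sp4 (17392 RFU), 60327 RFU for chitobiose α-sp4 (10211.5 RFU), 20688.5 RFU for chitopentaose (2266.5 RFU) and 31532 RFU for chitohexaose (2627 RFU). Male 5, whose array had the highest buffer, was that mouse for chitobiose β-sp3, with 6784 RFU against 2262 RFU in the next male. The 12 females were too many for this test.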

How the results depend on the processing

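Pairs were recomputed with the mean of 6 spots, background subtracted, quantile normalization, signals raised to the buffer, 500 RFU added before log2, spots not found left out, both or neither identical array, each set of arrays alone, and each mouse left out. On the higher-ratio arrays alone, related pairs past adjusted p went from 6 to 3, pairs of chitooligosaccharides from 15 to 12, and chitotriose minus chitopentaose (-0.84) and chitobiose β-sp3 minus chitopentaose (-0.90) became calls. The pairs that lost theirs in a set of arrays are named with the results, except that GlcNAcβ-sp3 minus chitobiose β-sp3 did in both sets (1.41 and 1.40). On the lower-ratio arrays alone the counts were 2 and 12, chitobiose β-sp3 minus β-sp4 (-2.09) lost its call, and uncalled means changed sign for β-sp4 minus α-sp4 (-0.42) and chitobiose β-sp3 minus chitopentaose (0.027). Chitobiose β-sp3 minus chitotriose, uncalled at 0.02, was -0.19 with the mean of 6 spots, -0.047 with quantile normalization and -0.062 on the higher-ratio arrays. Leaving out each mouse gave -0.059 to 0.19 for that pair, -0.13 to 0.19 for chitobiose β-sp4 minus α-sp4, -0.55 to -0.29 for chitotriose minus chitopentaose (a call without male 4, at -0.55) and -0.27 to -0.069 for chitopentaose minus chitohexaose (a call without male 7, at -0.27). Leaving out male 2 for bound compounds and correlations was chosen after seeing the data, and left 7 correlations past adjusted p in place of 11. At a threshold of 2000 RFU some mouse bound each of the 7 (72.4% of all glycans), and 5 were bound at 8000 RFU (37.9%) or after quantile normalization (52.2%). The causes of these changes were not tested. Signal near the buffer limits the comparisons among the 4 dimmer compounds.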
